A study of Mus musculus with 2 samples.

Results

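The genes described are the collagen chains, taken as every symbol that both libraries list and that reads Col, a type number, the letter a and a chain number. Col2a1, Col9a1 and Col10a1 were left out by the rule, which left 41 collagens of 21905 listed genes. Of these, 31 reached at least 50 UMIs (unique molecular identifiers, each standing for 1 captured RNA molecule) in 1 or more of 7 cell classes. The other 10, Col4a3, Col4a6, Col6a4, Col6a5, Col7a1, Col17a1, Col19a1, Col20a1, Col26a1 and Col28a1, held from 12 UMIs (Col17a1) to 99 UMIs (Col26a1) over all cells of both libraries and are not described further.

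Cells were released with collagenase from femurs and tibias of 12-week-old female mice, 96 h after an injection of vehicle in the Veh group or of 10 mg/kg doxorubicin, a chemotherapy drug that breaks DNA, in the Doxo group. The study's wild-type mice were C57BL/6, no transgene is named for these mice, and the number of mice per library is not given in the sources used here. Blood and immune cells were depleted by CD45, CD71 and Ter119, to which the labels add the endothelial protein CD31. Each condition was 1 library of 2488 cells, so the 2 conditions could not be tested against each other. Intervals in parentheses or after a ratio are 95% intervals that cover counting error only.

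Collagens are trimers of chains, most of them secreted and a few held in the cell membrane. Each secreted type has its own place in the matrix. Type I forms the fibrils of bone together with small amounts of type V, type III accompanies it in soft connective tissue, and type XI takes the place of type V in cartilage fibrils. Type IV builds the sheets of basement membranes, type VI forms beaded filaments around cells, types IX, XII, XIV, XVI and XXII lie on the surface of fibrils or at tissue junctions, and types XV and XVIII sit in basement membrane zones.

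The 7 classes were rebuilt by clustering without any collagen gene and named from marker genes that hold no collagen, so collagen levels had no part in them, and they are called "like" a cell type. They were osteoblast-like (205 Veh and 126 Doxo cells), chondrocyte-like (247 Veh and 206 Doxo), bone and cartilage fibroblast-like (BCF-like, 1097 Veh and 1342 Doxo), arteriolar and endosteal fibroblast-like (AEF-like, 424 Veh and 262 Doxo), CAR-like (369 Veh and 427 Doxo; CAR cells are the Cxcl12-abundant reticular cells of the marrow), synovial lining-like (44 Veh and 56 Doxo) and endothelial-like (102 Veh and 69 Doxo). The libraries held 24861189 UMIs in Veh and 20793502 in Doxo and shared 4 cell barcodes. Markers of other cell types were counted in each class, and where this RNA came from was not tested. The 8 osteoblast markers summed to 128020.1 CPM (UMIs of a gene summed over a class and scaled to 1000000 UMIs of the class) in Veh osteoblast-like cells and to between 512 and 12583 CPM in the other Veh classes. In Doxo they summed to 136058 CPM in osteoblast-like cells and to between 1834 and 8522 CPM elsewhere. In Veh BCF-like cells the osteocalcin genes Bglap and Bglap2 made up 314 of 8685 CPM, against 112726 of 128020 CPM in Veh osteoblast-like cells. Erythroid markers (4 genes) summed to between 82.4 and 518 CPM in Veh and to at most 11.4 CPM in Doxo.

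Osteoblast-like cells devoted far more of their RNA to collagen than any other class. The 41 collagens took 13.2% of their UMIs in Veh and 16.2% in Doxo, and the log2 ratio of Doxo over Veh was 0.30 (0.28 to 0.31). The next classes in Veh were AEF-like cells with 2.47% and chondrocyte-like cells with 2.19%. In Doxo these held 1.59% and 1.44%, log2 ratios of -0.63 (-0.65 to -0.62) and -0.60 (-0.62 to -0.59). The share was lower in Doxo in BCF-like cells (0.997% and 0.706%, log2 ratio -0.50 (-0.51 to -0.49)) and, in sum, in CAR-like cells (0.848% and 0.647%, -0.39 (-0.42 to -0.36)). It differed least in synovial lining-like cells (0.798% and 0.844%, 0.08 (0.02 to 0.14)) and endothelial-like cells (0.546% and 0.482%, -0.18 (-0.26 to -0.09)). CAR-like cells fell mainly into 2 finer clusters, and 1 of them held 78 Veh but 2 Doxo cells. The CAR-like ratio standardised for makeup was -0.16, but that cluster held too few Doxo cells and was left out of it. With a stricter filter on cells (a minimum of 1000 genes and a mitochondrial share of UMIs up to 5%) the CAR-like and synovial lining-like ratios were 0.01 and -0.19, so neither class can be given a direction. The order of the 3 highest classes was the same in both libraries, and apart from the small synovial lining-like class the share was higher in Doxo in osteoblast-like cells alone.

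**Figure D1:**
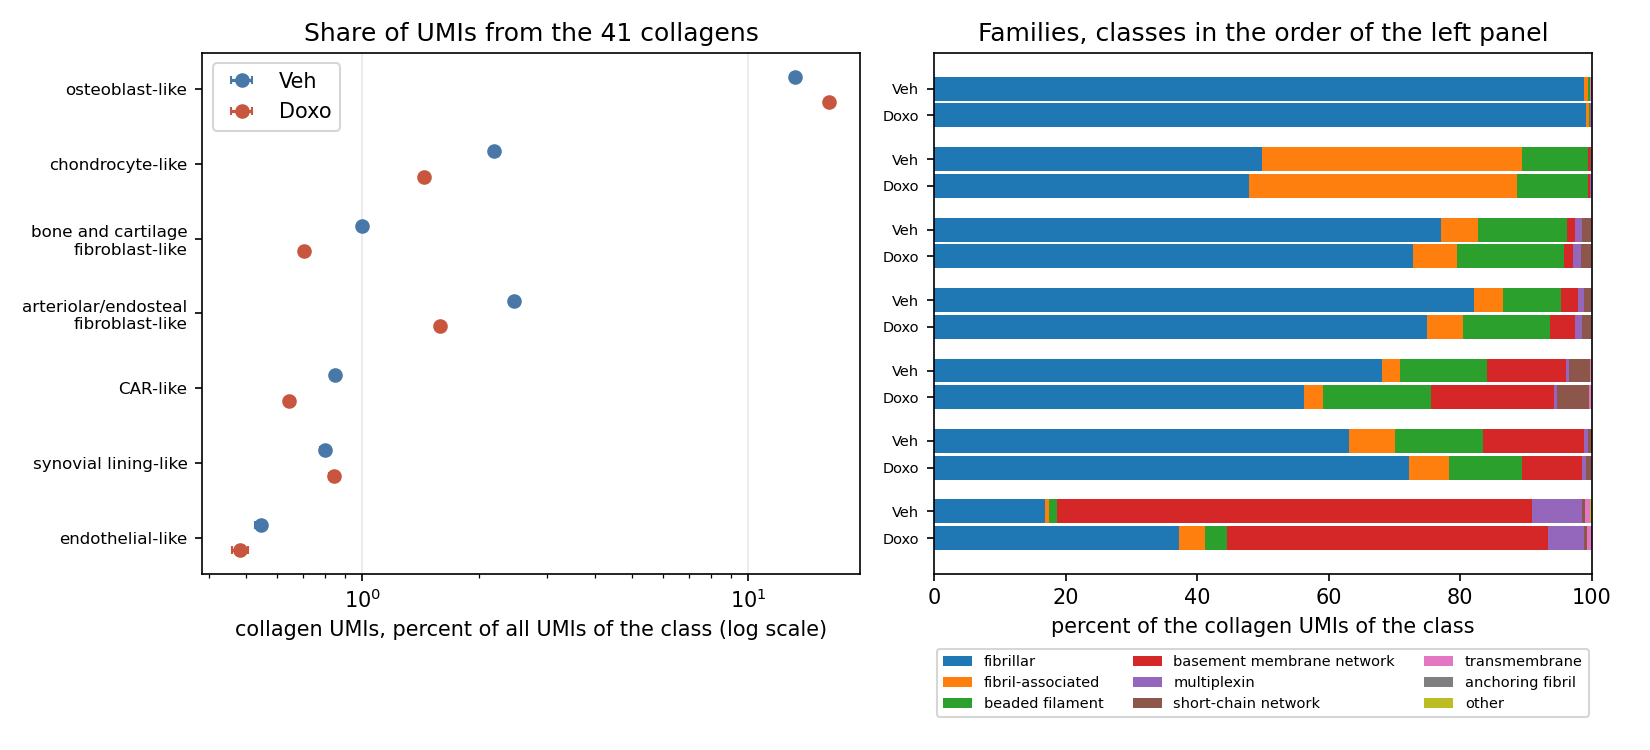
Collagen share and make-up by class. Left, UMIs of the 41 collagens as a percentage of all UMIs of the class on a log axis, for Veh (blue) and Doxo (red), with exact binomial 95% intervals that are mostly narrower than the points; right, the percentage of collagen UMIs from each family. Osteoblast-like cells lie at 13.2% and 16.2%, and fibrillar chains make up 98.8% of their collagen UMIs in Veh but 16.9% in endothelial-like cells.

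The families divided the classes. Fibrillar chains held 98.8% of the collagen UMIs of Veh osteoblast-like cells, 82.2% in AEF-like cells, 77.1% in BCF-like cells and 49.8% in chondrocyte-like cells. In chondrocyte-like cells the fibril-associated chains, above all type IX, held another 39.5%. Type IV chains held 72.1% of the collagen UMIs in Veh endothelial-like cells, 15.3% in Veh synovial lining-like cells and 12.0% in Veh CAR-like cells. In Doxo these last shares were 48.8%, 9.18% and 18.6%. The type IV part was thus smaller in the endothelial-like and synovial lining-like cells and larger in the CAR-like cells. The summed level of type IV in CAR-like cells was 1019 CPM in Veh and 1205 CPM in Doxo and that of the fibrillar chains 5772 and 3633 CPM, with 2414 Veh UMIs of Col1a1 in 1 cell.

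**Figure D2:**
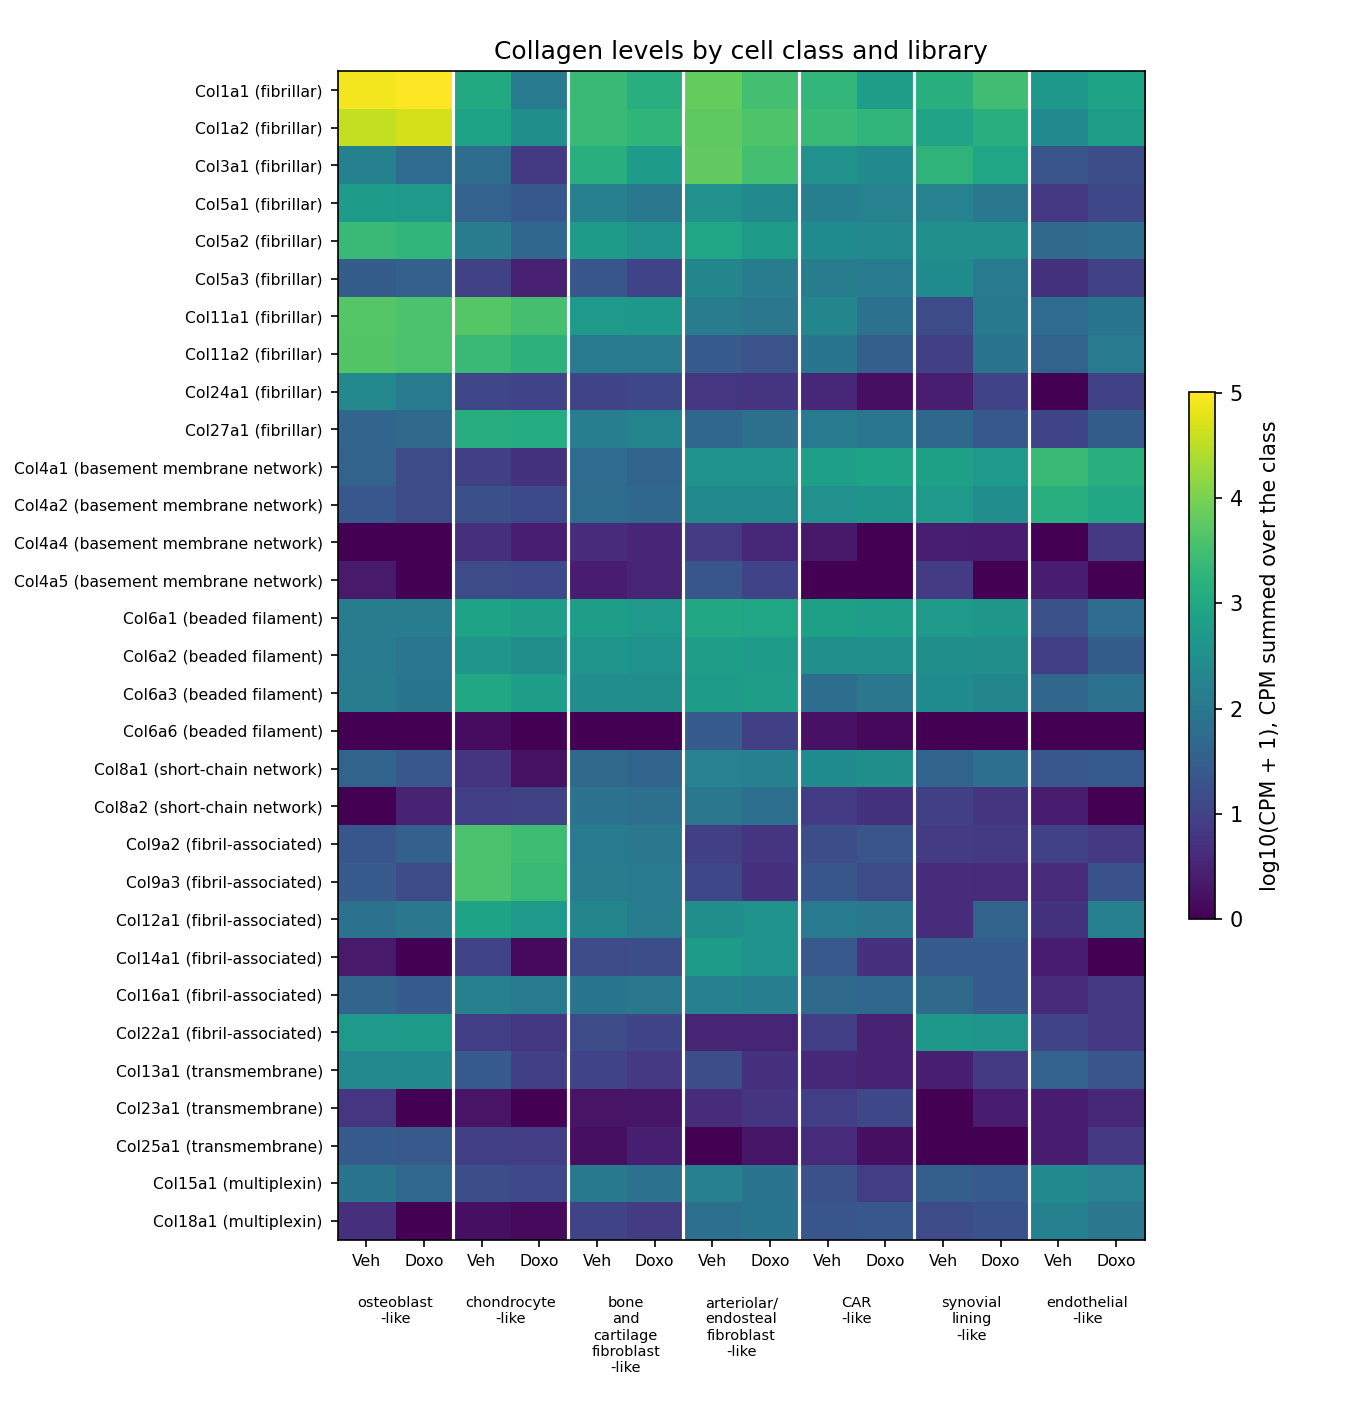
Levels of the 31 collagens with at least 50 UMIs in a class. Rows are genes with their family, columns are the Veh and Doxo libraries of each class, and colour is log10 of CPM plus 1. Type I chains are brightest in osteoblast-like cells, types IX and XXVII in chondrocyte-like cells, type XI in both, and Col4a1 and Col4a2 in endothelial-like cells.

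A collagen with at least 50 UMIs over both libraries of a class was counted as past the fold when its CPM differed by at least 1.5-fold, or 0.585 on the log2 scale. The share of all genes that did so in the same class is given beside each count. Single collagens were also put through other settings of filtering, clustering, weighting and scaling (11 in most classes, 10 in osteoblast-like and endothelial-like cells). In chondrocyte-like and synovial lining-like cells the setting standardised for finer clusters left their ratios unchanged. The number of settings that kept a collagen past the fold is given where it was not all of them. In chondrocyte-like cells 11 of 24 collagens were past it and lower in Doxo, against 9.72% of all genes, and 0 were higher, against 11.2%. In AEF-like cells the counts were 10 of 25 lower (7.01% of all genes) and 0 higher (4.81%). In BCF-like cells they were 6 of 27 lower (6.33%) and 0 higher (2.67%). In CAR-like cells 6 of 23 were lower (7.8%) and 0 higher (10.4%), and in osteoblast-like cells 4 of 16 were lower (13.7%) and 0 higher (11.2%). The small classes were mixed: 6 of 16 were lower (6.95%) and 5 higher (8.52%) in synovial lining-like cells, and 3 of 11 lower (8.29%) and 6 higher (9.15%) in endothelial-like cells. The median log2 ratio of the collagens was -0.50 in chondrocyte-like cells against 0.04 over all genes, -0.50 against -0.01 in AEF-like cells, -0.35 against -0.09 in BCF-like cells, -0.24 against 0.01 in osteoblast-like cells and -0.13 against 0.06 in CAR-like cells. It was -0.18 against 0.01 in synovial lining-like and 0.70 against -0.01 in endothelial-like cells.

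**Figure D3:**
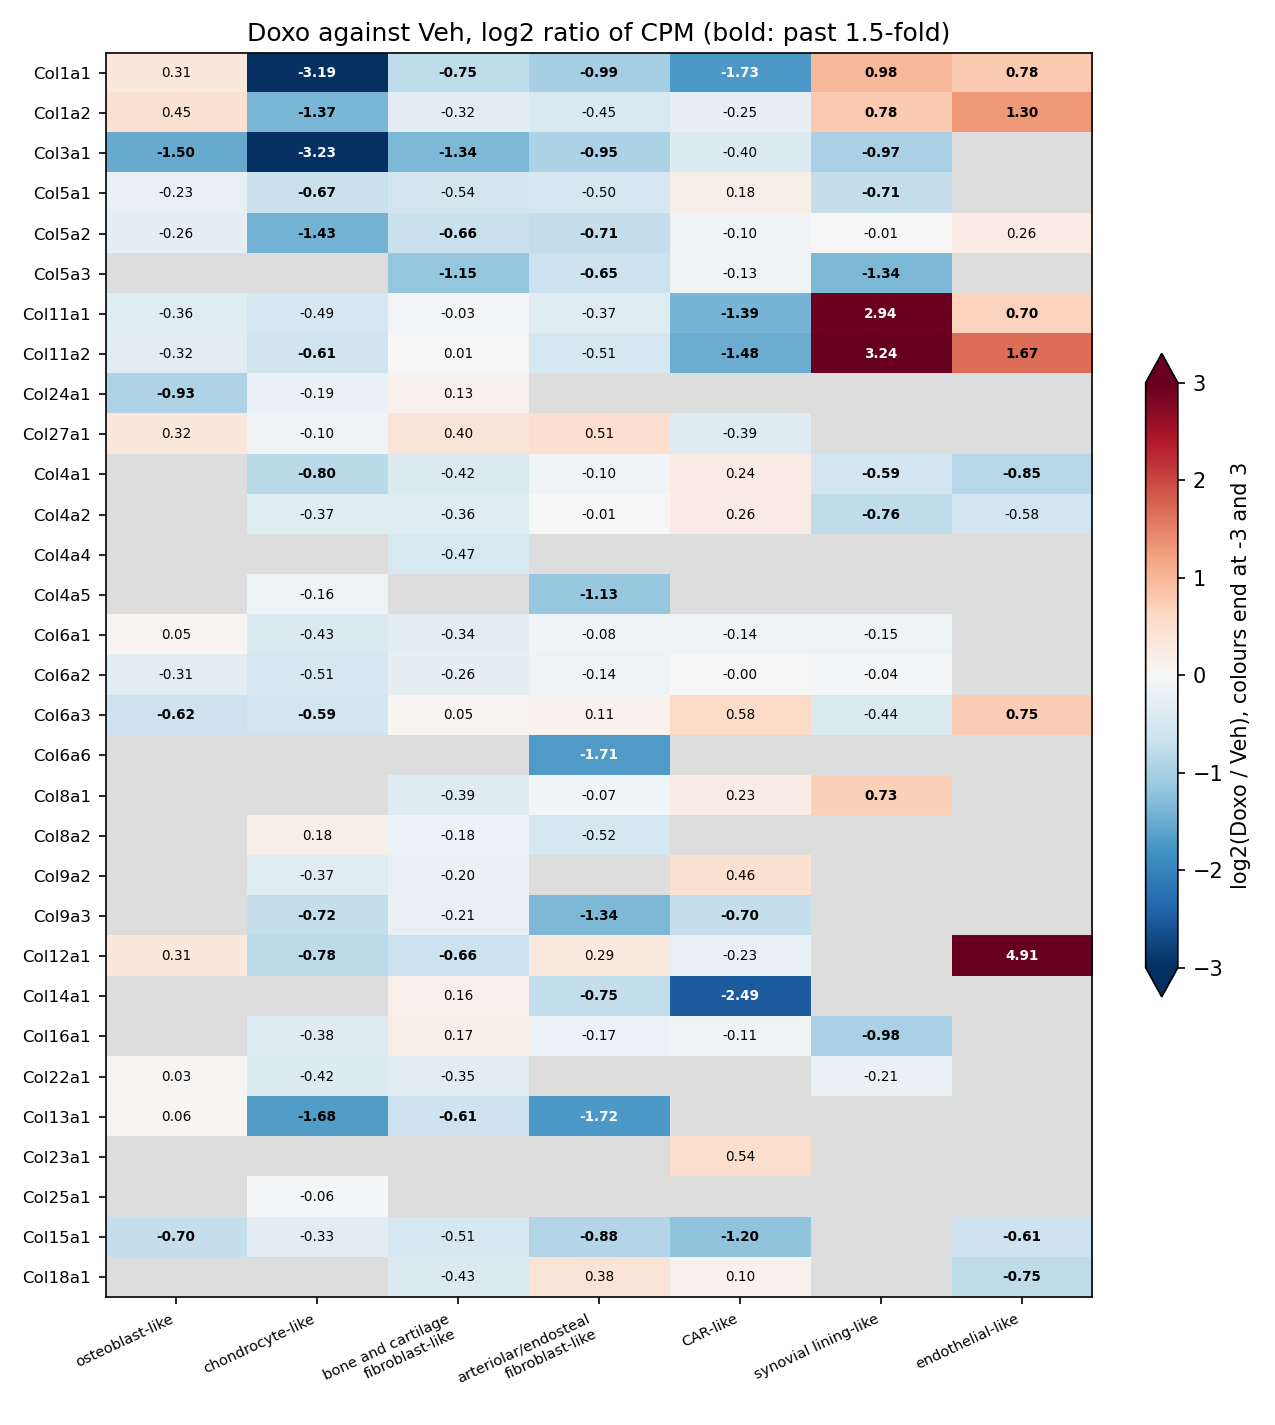
Log2 ratio of CPM, Doxo over Veh, for each collagen (rows) in each class (columns). Blue is lower and red higher in Doxo, bold numbers are past 1.5-fold, and grey marks pairs with fewer than 50 UMIs. Col3a1 is blue in each of the 6 classes where it could be counted, past the fold in 5 of them, while Col1a1 is blue in 4 classes and red in 3.

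Type I collagen, the main protein of bone, was lower in Doxo in both fibroblast-like classes and higher in osteoblast-like cells. Col1a1, which encodes its α1 chain (chr11:94936224-94953042, plus strand of GRCm38), stood at 82294 CPM in Veh and 102290.2 CPM in Doxo in osteoblast-like cells, and Col1a2, the α2 chain, at 34946 CPM in Veh and 47717 CPM in Doxo. Both were higher in Doxo, by less than 1.5-fold, with log2 ratios of 0.31 (0.30 to 0.33) and 0.45 (0.42 to 0.47). The median cell was higher in Doxo too, with 69707 CPM of Col1a1 in Veh and 89627 CPM in Doxo.

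In both fibroblast-like classes the α1 chain differed more than the α2 chain. Col1a1 held 6603 CPM in Veh and 3321 CPM in Doxo in AEF-like cells, a log2 ratio of -0.99 (-1.03 to -0.95). In BCF-like cells it held 2469 CPM in Veh and 1468 CPM in Doxo, a ratio of -0.75 (-0.78 to -0.72). The Veh library was the higher one in both classes, in the median cell too (2022 against 1522 CPM and 802 against 408 CPM), and both ratios stayed past the fold in each of the 11 settings. Col1a2 in the same classes was lower by less than 1.5-fold, at 5892 and 4314 CPM in AEF-like cells and 2323 and 1867 CPM in BCF-like cells, log2 ratios of -0.45 (-0.48 to -0.42) and -0.32 (-0.34 to -0.29). Osteoblast markers summed to 3164 and 2291 CPM in the former class and to 8685 and 8522 CPM in the latter, and their part in the ratios was not tested. With the 5% of cells richest in osteoblast markers left out, the Col1a1 ratios were -0.82 and -0.90.

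In CAR-like and chondrocyte-like cells the sum of Col1a1 rested on very few cells. It was 2077 CPM in Veh and 626 CPM in Doxo in CAR-like cells and 1113 CPM in Veh and 122 CPM in Doxo in chondrocyte-like cells, log2 ratios of -1.73 (-1.80 to -1.66) and -3.19 (-3.34 to -3.04). A single Veh cell held 2414 of the 5252 Col1a1 UMIs of the CAR-like class, and another held 2644 of 5411 in the chondrocyte-like class, where osteoblast markers summed to 46325 CPM in that cell against a class median of 3734 CPM. The median cell was slightly higher in Doxo in both classes, 342 against 385 CPM in CAR-like and 81.3 against 108 CPM in chondrocyte-like cells. Without the 5% of cells with most Col1a1 UMIs in each library the log2 ratios turned to 0.15 and 0.26 (10 of 11 settings kept each past the fold), so the lower sum did not hold in the typical cell of either class. Col1a2 in chondrocyte-like cells, 801 and 310.0 CPM, likewise went from a ratio of -1.37 to -0.35 (10 of 11 settings), and in CAR-like cells Col1a2 differed little (2397 and 2011 CPM, -0.25 (-0.30 to -0.20)).

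**Figure D4:**
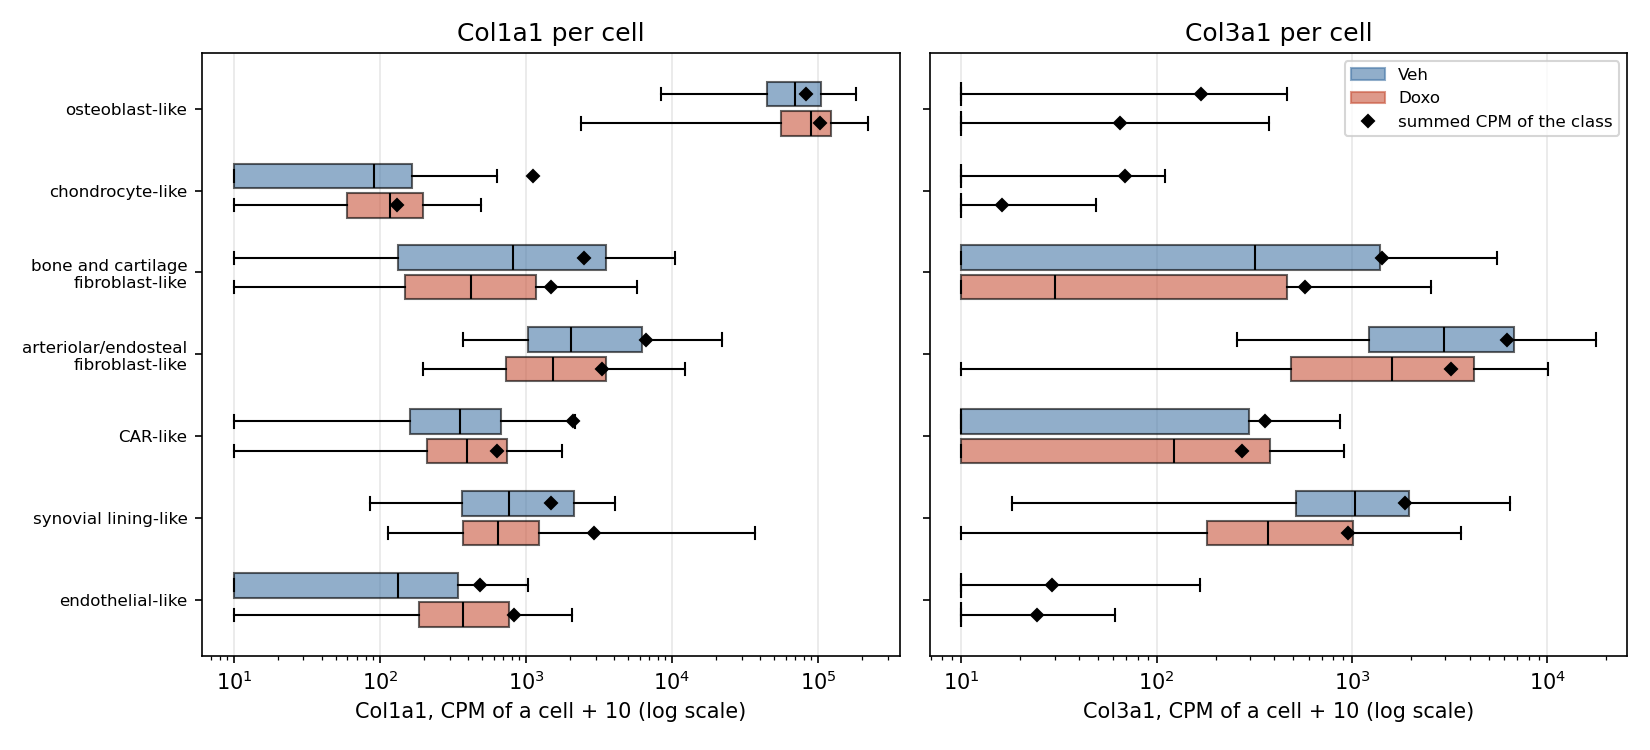
Col1a1 (left) and Col3a1 (right) per cell, by class and library. Boxes run from the 25th to the 75th percentile of cells with the median as a line, whiskers from the 5th to the 95th, diamonds mark the summed CPM of the class, and the log axis shows CPM of a cell plus 10. The Veh diamond of Col1a1 lies beyond the whisker in chondrocyte-like cells and near its end in CAR-like cells, whereas for Col3a1 the Doxo median and the upper end of the Doxo box lie below those of Veh in both fibroblast-like classes and in synovial lining-like cells.

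In the 2 small classes type I chains were higher in Doxo. Synovial lining-like cells held 1479 CPM in Veh and 2922 CPM in Doxo of Col1a1 and 858 and 1468 CPM of Col1a2, log2 ratios of 0.98 (0.87 to 1.10) and 0.78 (0.62 to 0.93). Endothelial-like cells held 478 CPM in Veh and 823 CPM in Doxo of Col1a1 and 257 and 631 CPM of Col1a2, ratios of 0.78 (0.55 to 1.02) and 1.30 (1.01 to 1.59). Osteoblast markers were also higher there in Doxo, 512 against 2770.0 CPM in synovial lining-like and 1156 against 1834 CPM in endothelial-like cells. In endothelial-like cells there were 0.547 Col1a1 UMIs in Veh and 0.552 in Doxo for each UMI of the osteocalcin genes Bglap and Bglap2, beside 0.730 and 0.841 in osteoblast-like cells. In synovial lining-like cells there were 3.93 and 1.21, and these osteocalcin genes stood at 376 CPM in Veh and 2405 CPM in Doxo. The part of osteoblast RNA in these ratios was not tested. The median synovial lining-like cell held 759 CPM of Col1a1 in Veh and 631 CPM in Doxo, the reverse of the sum, and without the 5% of cells with most Col1a1 UMIs the class ratio was 0.44, under the fold (10 of 11 settings). Col1a2 of this class stayed past the fold in 9 of 11 settings. In endothelial-like cells 1 Veh cell held 63.6% and 1 Doxo cell 49% of the Col1a1 UMIs of its library, the ratio turned to -0.23 with a stricter filter on cells (8 of 10 settings past the fold), and CAR markers summed to 847 CPM in Veh and 2577 CPM in Doxo.

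Col3a1, the single chain of type III collagen, had a lower sum in Doxo in all 6 classes with enough UMIs, although the CAR-like difference rested on few cells. Its gene lies on chr1:45311538-45349706, plus strand of GRCm38. It is shown here with the sequence before its start because it was past the fold and lower in Doxo in more classes than any other collagen. The 250 bases before the start of the RefSeq transcript (chr1:45311288-45311537, plus strand, GRCm38.p6, from RefSeq) read, 5′ to 3′, with the match to TATAAA in capitals:
Col3a1: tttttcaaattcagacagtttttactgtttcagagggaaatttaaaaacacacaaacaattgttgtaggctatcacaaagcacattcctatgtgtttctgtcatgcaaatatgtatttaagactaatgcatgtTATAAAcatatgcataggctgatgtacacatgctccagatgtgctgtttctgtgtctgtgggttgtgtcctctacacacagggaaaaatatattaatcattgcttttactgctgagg
The match begins 117 bases before the start. TATAAA was searched on both strands, as was CCAAT, which has no match in this window, and 12.4% of 32851 mouse windows of this length hold TATAAA and 33.8% hold CCAAT. Of the 35 windows found for 33 of the collagens, 4 held TATAAA and 12 held CCAAT, shares of 11.4% and 34.3%, close to those of all windows.

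Col3a1 was highest in AEF-like cells, at 6188 CPM in Veh and 3209.8 CPM in Doxo, and the log2 ratio was -0.95 (-0.99 to -0.91). In BCF-like cells it stood at 1420.4 CPM in Veh and 562 CPM in Doxo, a ratio of -1.34 (-1.38 to -1.29), and in synovial lining-like cells at 1851 CPM in Veh and 942 CPM in Doxo, a ratio of -0.97 (-1.12 to -0.83). The Veh library was higher by about 2-fold or more in these 3 classes, and the ratio stayed past the fold in all 11 settings in each. The median cell held 2938 CPM in Veh and 1597 CPM in Doxo in the first class, 307 and 20.1 CPM in the second, and 1023 and 362 CPM in the third. A UMI of Col3a1 was found in 66.2% of Veh and 671 of the 1342 Doxo BCF-like cells, and in 48.3% and 32.1% with each cell thinned to 2000 UMIs (cells with fewer were left out, keeping 1068 Veh and 1305 Doxo cells), against 2.90% and 1.49% in thinned chondrocyte-like cells, which hold little of it.

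Within BCF-like cells the difference was uneven. In the largest of their finer clusters (577 Veh and 670 Doxo cells) Col3a1 stood at 2507 CPM in Veh and 1015 CPM in Doxo, a log2 ratio of -1.30. In the second (310 and 490 cells) the ratio was -0.54, and in a smaller one with little Col3a1 (116 and 119 cells) it was -0.16. The 2 smallest clusters, with 61 and 41 and with 28 and 22 cells, had ratios of -2.25 and 0.34, so the difference was not in 1 direction in every cluster. Both finer clusters of AEF-like cells were lower in Doxo, with Col3a1 ratios of -1.12 and -0.54 and Col1a1 ratios of -0.53 and -1.20. The chain with the larger difference was thus Col3a1 in the former and Col1a1 in the latter.

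Chondrocyte-like and osteoblast-like cells held little Col3a1. It was at 58.4 CPM in Veh and 6.10 CPM in Doxo in the former (284 and 19 UMIs, log2 ratio -3.23 (-4.01 to -2.59)) and at 158 CPM in Veh and 55.2 CPM in Doxo in the latter (122 and 28 UMIs, -1.50 (-2.17 to -0.92)). In Veh, 5% of the cells held 88.4% and 88.5% of these UMIs, and without such cells the osteoblast-like ratio was -0.37, under the fold. It was also under it with 20 principal components (-0.35), and past it in 8 of 10 settings. CAR-like cells stood at 346 and 262 CPM, a ratio of -0.40 (-0.54 to -0.26), which is under 1.5-fold. Their median cell was higher in Doxo, at 0 CPM in Veh and 113 CPM in Doxo, and without the 5% of cells with most Col3a1 UMIs the ratio was 0.53.

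The type V chains, which regulate the width of type I fibrils, were lower in Doxo in both fibroblast-like classes too. Col5a2 (α2 chain) stood at 861 CPM in Veh and 528 CPM in Doxo in AEF-like cells and at 559.9 and 354 CPM in BCF-like cells, log2 ratios of -0.71 (-0.80 to -0.61) and -0.66 (-0.72 to -0.60), past the fold in 10 of 11 settings each. Col5a3 (α3 chain) was lower in both classes and in synovial lining-like cells, with 196 and 125 CPM, 20.8 and 9.36 CPM and 278 and 109.5 CPM and ratios of -0.65 (8 of 11 settings), -1.15 and -1.34. Col5a1 (α1 chain) was lower by less than 1.5-fold in both fibroblast-like classes (-0.50 and -0.54). Col5a2 lies next to Col3a1, on chr1:45374321-45503282, minus strand, with 24614 bases between them. The levels of Col5a2 were highest in osteoblast-like cells, at 2369 CPM in Veh and 1978 CPM in Doxo, a ratio of -0.26 (-0.37 to -0.15), where Col3a1 was low. In chondrocyte-like cells Col5a2 was at 127 and 47.2 CPM (-1.43 (-1.70 to -1.17)) and Col5a1 at 36.0 and 22.5 CPM (-0.67 (-1.10 to -0.27), 10 of 11 settings). CAR-like cells differed little in type V, with ratios of 0.18, -0.10 and -0.13 for α1, α2 and α3. Synovial lining-like cells held 166 and 102 CPM of Col5a1, a ratio of -0.71 (-1.18 to -0.25), past the fold in 9 of 11 settings.

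Type XI chains were shared by osteoblast-like and chondrocyte-like cells, as the minor fibrillar collagen that cartilage is known for. Col11a1 stood at 4921 CPM in Veh and 3824 CPM in Doxo in osteoblast-like and 4905 CPM in Veh and 3482 CPM in Doxo in chondrocyte-like cells, and the 2 classes did not differ in Veh beyond counting error. Col11a2 stood at 4579.6 and 3660.0 CPM in osteoblast-like and 2515 and 1652 CPM in chondrocyte-like cells, so the 2 chains were about equal in the former (1.07 and 1.04 UMIs of Col11a1 per UMI of Col11a2 in Veh and Doxo) and unequal in the latter (1.95 and 2.11). The 3′ UMIs counted molecules and were not divided by gene length. Doxo was the lower library for both chains in both classes, with log2 ratios of -0.36 and -0.32 in osteoblast-like cells and -0.49 (-0.53 to -0.46) and -0.61 (-0.65 to -0.56) in chondrocyte-like cells, of which Col11a2 in the latter was past the fold, in 10 of 11 settings. BCF-like cells held 486 and 476 CPM of Col11a1 and did not differ by more than counting error (-0.03 (-0.08 to 0.03)).

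In CAR-like cells type XI chains were past the fold and lower in Doxo, Col11a1 at 195 and 74.7 CPM (-1.39 (-1.61 to -1.17)) and Col11a2 at 89.4 and 32.0 CPM (-1.48 (-1.83 to -1.15)). Of the Veh Col11a1 UMIs 66.4% were in 5% of the cells, and without those of most UMIs the ratios were -0.93 and -0.48, the second under the fold. With a stricter filter on cells the Col11a2 ratio was 0.07 (8 of 11 settings past the fold). The finer cluster of 78 Veh and 2 Doxo cells held 203 of the 494 Veh UMIs of Col11a1 and 125 of the 226 of Col11a2. Standardised for makeup, with this cluster left out for its few Doxo cells, the ratios were -1.06 and -0.87. Osteoblast markers in CAR-like cells summed to 7037 CPM in Veh and 2811 CPM in Doxo, and their part was not tested. The 2 small classes went the other way. Synovial lining-like cells held 8 UMIs of Col11a1 in Veh and 67 in Doxo (2.94 (1.96 to 4.29)) and 5 and 53 UMIs of Col11a2 (3.24 (2.05 to 5.04)). Of these Doxo UMIs 79.1% and 83% lay in 3 of the 56 cells, and the median cell held 0 CPM of each chain. Endothelial-like cells held 37 and 31 UMIs of Col11a1 and 26 and 43 of Col11a2, ratios of 0.70 (9 of 10 settings) and 1.67 (8 of 10 settings, -0.35 with the stricter filter on cells). A single Doxo cell held 33 of those 43 Col11a2 UMIs, and without the 5% of cells with most of them the ratio was 0.15. Osteoblast markers were higher in Doxo in both classes, as given above.

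The cartilage-bound fibril-associated chains Col9a2 and Col9a3, partners in type IX collagen, were almost wholly chondrocyte-like. Col9a3 stood at 3942 CPM in Veh and 2386 CPM in Doxo and Col9a2 at 3732 CPM in Veh and 2892 CPM in Doxo, against at most 131 CPM of Col9a3 in any other class. Both were lower in Doxo, Col9a3 past the fold (-0.72 (-0.76 to -0.69)) and Col9a2 not (-0.37 (-0.40 to -0.33)), so the UMIs of Col9a3 per UMI of Col9a2 were 1.06 in Veh and 0.825 in Doxo. Outside the chondrocyte-like class Col9a3 was past the fold on few UMIs, 53 and 43 in CAR-like cells (-0.70 (-1.32 to -0.10), 10 of 11 settings) and 47 and 9 in AEF-like cells (-1.34 (-2.62 to -0.36)). Col27a1, a fibrillar collagen of growing cartilage, was also highest in chondrocyte-like cells, at 1342 and 1251 CPM, and differed little (-0.10 (-0.16 to -0.04)). Col24a1, a minor fibrillar collagen of bone, was highest in osteoblast-like cells, at 227 CPM in Veh and 118 CPM in Doxo, and lower in Doxo (-0.93 (-1.39 to -0.51)).

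Other fibril-associated chains marked single classes. Col14a1 was found almost wholly in AEF-like cells, at 589 CPM in Veh and 351 CPM in Doxo, and the next class in Veh, synovial lining-like cells, held 27.5 CPM. It was lower in Doxo, with a log2 ratio of -0.75 (-0.87 to -0.63) and -0.77 and -1.23 in the 2 finer clusters. In CAR-like cells 54 of its 61 Veh UMIs lay in 1 cell, so its ratio there (-2.49, against 14 Doxo UMIs) is that of 1 cell, and it was 0.56 with called doublets left out (9 of 11 settings past the fold).

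Col12a1, which binds the surface of type I fibrils, was highest in chondrocyte-like cells. It stood there at 821 CPM in Veh and 479 CPM in Doxo, a log2 ratio of -0.78 (-0.86 to -0.69), and its median cell at 653 and 207 CPM. In BCF-like cells it was lower in Doxo as well (203 and 129 CPM, -0.66 (-0.75 to -0.56), 8 of 11 settings), but in AEF-like cells it was higher by less than 1.5-fold (301 and 368 CPM, 0.29 (0.16 to 0.42)). In the smaller of the finer clusters there (129 Veh and 71 Doxo cells), Col12a1 stood at 841 and 1103 CPM while Col1a1 stood at 13659 and 5934 CPM. In endothelial-like cells all 54 Doxo UMIs lay in at most 4 cells, against 3 UMIs in Veh, a ratio of 4.91 (3.50 to 7.45).

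Col22a1, a chain of tissue junctions, was high in the osteoblast-like (522 and 532 CPM) and synovial lining-like classes (469.9 and 407 CPM) and differed little in both (0.03 (-0.20 to 0.25) and -0.21 (-0.45 to 0.04)). Col16a1 stood at 158 and 140.2 CPM in AEF-like cells and 153 and 118 CPM in chondrocyte-like cells, and was past the fold only in synovial lining-like cells, on 33 and 17 UMIs (-0.98 (-1.94 to -0.12)). The transmembrane collagen Col13a1 was highest in osteoblast-like cells, where it did not differ beyond counting error (228 and 238 CPM, 0.06 (-0.28 to 0.40)). It was past the fold on 127 and 25 UMIs in chondrocyte-like cells (-1.68), 61 and 9 in AEF-like cells (-1.72), where leaving out the 5% of cells with most of its UMIs gave 0.97 (10 of 11 settings past the fold), and 101 and 63 in BCF-like cells (-0.61, 7 of 11 settings). Col25a1, another transmembrane collagen, was highest in osteoblast-like cells (21 and 12 UMIs, too few to count) and did not differ beyond counting error in chondrocyte-like cells (-0.06 (-0.90 to 0.74)), nor did Col23a1 in CAR-like cells (19 and 37 UMIs, 0.54 (-0.28 to 1.44)).

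The basement membrane chains Col4a1 and Col4a2, which assemble together, had lower sums in Doxo in endothelial-like cells and higher ones, by less than 1.5-fold, in CAR-like cells. Endothelial-like cells stood at 2463 CPM in Veh and 1366 CPM in Doxo of Col4a1 and 1470.4 CPM in Veh and 979.9 CPM in Doxo of Col4a2, log2 ratios of -0.85 (-1.001 to -0.70) and -0.58 (-0.77 to -0.41), the first past the fold and the second just under it. The median endothelial-like cell held 1408 CPM of Col4a1 in Veh and 873 CPM in Doxo, whereas that of Col4a2 held 809 CPM in Veh and 890.3 CPM in Doxo, the reverse of its sum. Without the 5% of cells with most of its UMIs the Col4a1 ratio was -0.54, under the fold (9 of 10 settings). CAR-like cells stood at 683 and 806 CPM of Col4a1 and 335 and 399.6 CPM of Col4a2, ratios of 0.24 (0.15 to 0.33) and 0.26 (0.13 to 0.38). Their median cell of Col4a1 was at 581 and 661 CPM, and 5% of the cells held 19.9% and 19.9% of the UMIs, a spread over many cells. Synovial lining-like cells stood at 733 and 488 CPM of Col4a1 and 481 and 285 CPM of Col4a2, lower in Doxo for both chains, with ratios of -0.59 (-0.80 to -0.38) (8 of 11 settings) and -0.76 (-1.03 to -0.49). Behind the endothelial-like cells, the second-highest Col4a1 level was thus that of synovial lining-like cells in Veh and that of CAR-like cells in Doxo.

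The genes of both chains lie head to head on chr8, Col4a1 on the minus strand (chr8:11198423-11312826) and Col4a2 on the plus strand (chr8:11312805-11449287), and the annotated genes overlap by 22 bases at their starts, away from the 3′ ends that the UMIs come from. The balance of the chains differed more between classes than between libraries. There were 0.490 and 0.496 UMIs of Col4a2 per UMI of Col4a1 in Veh and Doxo CAR-like cells, 0.597 and 0.718 in endothelial-like cells and 1.07 and 1.12 in BCF-like cells. Of the remaining type IV chains only Col4a5 was past the fold, on 88 and 20 UMIs in AEF-like cells (-1.13 (-1.94 to -0.45)), and in chondrocyte-like cells Col4a1 was past it on 39 and 14 UMIs with an interval that holds 0 (-0.80 (-1.83 to 0.08)) and a ratio of 1.63 with called doublets left out (8 of 11 settings past the fold). Col4a4 stood at 38 and 26 UMIs in BCF-like cells (-0.47 (-1.26 to 0.27)).

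Col15a1 and Col18a1, whose chains carry the precursor of endostatin-like fragments in basement membrane zones, were highest in endothelial-like cells. Col15a1 stood at 259.6 CPM in Veh and 169 CPM in Doxo and Col18a1 at 161 CPM in Veh and 94.3 CPM in Doxo, log2 ratios of -0.61 (-1.07 to -0.19) and -0.75 (-1.38 to -0.20). Both were lower in Doxo, past the fold in 4 of 10 and 8 of 10 settings. Col15a1 was also lower in AEF-like cells (151 and 82.0 CPM, -0.88 (-1.13 to -0.64)), whereas Col18a1 there was higher by less than 1.5-fold (66.5 and 86.2 CPM, 0.38 (0.10 to 0.65)). On few UMIs Col15a1 was past the fold in osteoblast-like (65 and 26 UMIs, -0.70, 8 of 10 settings) and CAR-like cells (42 and 24 UMIs, -1.20, 10 of 11 settings). In BCF-like cells it stood at 105 and 73.7 CPM (-0.51 (-0.64 to -0.37)).

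Of the main chains of type VI collagen, Col6a1 and Col6a2 differed by less than 1.5-fold, most in chondrocyte-like cells. The other, Col6a3, was past the fold in some classes. Col6a1 and Col6a2 were under 1.5-fold in each class with at least 50 UMIs. For Col6a1 the log2 ratios ran from -0.43 in chondrocyte-like to 0.05 in osteoblast-like cells. For Col6a2 the log2 ratios ran from -0.51 in chondrocyte-like to 0.00 in CAR-like cells. Both chains were highest in AEF-like cells, at 946 and 897 CPM and 614 and 557 CPM, where the ratios were -0.08 (-0.15 to 0.00) and -0.14 (-0.24 to -0.04). CAR-like cells stood at 716 and 649.9 CPM of Col6a1 (-0.14 (-0.23 to -0.05)), their most abundant chain after type I in Veh. In AEF-like cells Col1a1 and Col3a1 were lower in Doxo by ratios of -0.99 and -0.95. Col6a3 was highest in chondrocyte-like cells (971 and 647 CPM, -0.59 (-0.66 to -0.51), 9 of 11 settings) and was also past the fold in osteoblast-like cells (103 and 44 UMIs, -0.62), where it stayed past the fold in 6 of 10 settings and the ratio was 0.11 without the 5% of cells with most of its UMIs, and higher in endothelial-like cells (30 and 26 UMIs, 0.75, 7 of 10 settings). CAR-like cells stood at 62.5 and 93.8 CPM, a ratio of 0.58 (0.31 to 0.87), just under the fold. Col6a6 was past it in AEF-like cells, on 112 and 17 UMIs (-1.71 (-2.57 to -0.999), 10 of 11 settings). The short-chain Col8a1 was highest in CAR-like cells and differed little there (267 and 313 CPM, 0.23 (0.09 to 0.37)), and was higher in Doxo in synovial lining-like cells (40.4 and 67.3 CPM, 0.73 (-0.01 to 1.51), 10 of 11 settings), with an interval that holds 0. Col8a2 was highest in AEF-like cells in Veh and stood there at 95.8 and 66.6 CPM (-0.52 (-0.81 to -0.25)) and at 80.3 and 70.9 CPM in BCF-like cells (-0.18 (-0.32 to -0.04)).

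The balance of the 2 type I chains differed between classes and libraries. Osteoblast-like cells held 0.425 UMIs of Col1a2 per UMI of Col1a1 in Veh and 0.466 in Doxo. The same ratio was 0.892 and 1.30 in AEF-like cells, 0.941 and 1.27 in BCF-like cells, and 1.15 and 3.21 in CAR-like cells. The part of Col1a2 was thus larger in Doxo in each of these classes, the CAR-like Veh value being set in part by the single cell described above. It was also larger in Doxo in chondrocyte-like cells (0.719 and 2.54, with few cells behind the Veh value) and endothelial-like cells (0.537 and 0.767). Synovial lining-like cells went the other way (0.58 and 0.502). Col1a1 made up the larger part in both libraries in osteoblast-like, synovial lining-like and endothelial-like cells.

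A list of genes of collagen modification, export, cross-linking, receptors and basement membrane partners was counted in the same way, without a test. Its genes were more often lower in Doxo than all genes in chondrocyte-like and synovial lining-like cells. In osteoblast-like cells 0 were lower past the fold, and the count of higher ones was not far from the share of all genes. The listed genes were not put through the other settings, so no count of settings is given for them. Of 54 listed genes, 27 reached 50 UMIs in osteoblast-like cells, of which 0 were lower (13.7% of all genes) and 5 higher past the fold (11.2%), with a median log2 ratio of 0.37. The 5 were Sparc, a collagen-binding protein of bone (14824 CPM in Veh and 22474 CPM in Doxo, 0.60 (0.56 to 0.64)), Pcolce, which speeds removal of the C-terminal propeptide (226 and 409.7 CPM, 0.86 (0.56 to 1.16)), Adamts2, the N-terminal propeptide enzyme (0.64), Creb3l1, a transcription factor of the secretory pathway (0.59), and Crtap, part of the prolyl 3-hydroxylation complex (0.77). In AEF-like cells Sparc was lower instead (7857 CPM in Veh and 4669 CPM in Doxo, -0.75 (-0.78 to -0.72)), as was the prolyl 4-hydroxylase chain P4ha2 (-0.60), with Ddr1 and Nid2 higher (0.65 and 0.73) among 47 genes, no more than the 7.01% lower and 4.81% higher of all genes.

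In BCF-like cells 4 of 50 such genes were lower (6.33% of all genes) and 0 higher (2.67%), near the shares of all genes. They were 3 lysyl oxidase relatives that cross-link collagen, Loxl2 (100.03 CPM in Veh and 40.4 CPM in Doxo, -1.31 (-1.47 to -1.15)), Loxl4 (25.1 and 9.26 CPM, -1.44) and Loxl1 (-0.63), and the propeptide enzyme Tll1 (-0.92). Chondrocyte-like cells had 12 of 41 lower (9.72% of all genes) and 1 higher (11.2%). Loxl4 (65.8 and 21.5 CPM, -1.61 (-2.02 to -1.23)) and Loxl2 (-1.05) were among them, with Lama4 (-1.42), P4ha2 (-1.02), Pcolce, Nid2 (-0.98), Creb3l1 (-0.91), Fkbp10 (-0.77), Mrc2 (-0.71), Bmp1 (-0.69), P3h4 (-0.66) and P3h1 (-0.65), and the collagen receptor chain Itga10 was higher (0.62).

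CAR-like cells had 2 of 46 lower, P4ha1 (120.2 CPM in Veh and 63.3 CPM in Doxo, -0.92 (-1.19 to -0.67)) and Lama2 (-0.93), and 4 higher, Pcolce2 (1.06), Hspg2, which encodes the basement membrane proteoglycan perlecan (55.0 CPM in Veh and 108 CPM in Doxo, 0.96 (0.68 to 1.26)), Ddr1, a collagen receptor (0.75), and Crtap (0.64), against 7.8% and 10.4% of all genes, which are near these shares. In endothelial-like cells 3 of 23 were lower, the laminin chains Lamb1 (155 and 65.7 CPM, -1.21 (-1.96 to -0.58)), Lama4 (-0.78) and Lamc1 (-0.70), partners of type IV collagen in the basement membrane, and 2 higher, Plod2 (1.55) and P4hb (0.59). Of all genes 8.29% were lower and 9.15% higher there, so the higher count is near that share. Synovial lining-like cells had 8 of 35 lower, from -0.75 (Plod3) to -0.60 (Loxl2), and 2 higher, Lox (32.3 CPM in Veh and 191 CPM in Doxo, 2.53 (1.87 to 3.32)) and Sec23a (0.83), against 6.95% and 8.52% of all genes.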

How the data were processed

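Single cells of bone were measured with the 10x Chromium 3′ v3 kit. As deposited by the authors, the values are log2 values of reads counted with Cell Ranger on GRCm38 (mm10; version not given in the sources used here) and scaled per cell in Partek. Whole UMIs (unique molecular identifiers) were recovered from them. Of the values up to 50 UMIs, 99.94% lay within 0.05 UMI of a whole number, and larger values were not part of this check. Cells were filtered and clustered after the study's methods with Seurat 5.3.0 (2000 variable genes, none of them a collagen, 35 principal components, resolution 0.1, finer clusters at 0.4). The clusters were named from marker lists, and the finer ones carry no name of their own. UMIs were summed per class and library and scaled to CPM. Log2 ratios had 0.5 UMI added to each sum. Intervals are exact Poisson, binomial or conditional binomial 95% intervals and cover counting error only. With 1 library per condition no test was run, and the count of libraries limits every comparison. A collagen was named when it was among the 3 highest of a class, past the fold, or a chain of types I, III, IV, V, VI, XII, XIV or XV, and the other collagens with at least 50 UMIs in a class were given by the classes where they were highest or could be counted. Members, lists and alternatives were chosen with earlier results of these data known. Scrublet (scanpy 1.11.5) called 9 Veh and 3 Doxo cells doublets, too few for leaving them out to be a check on doublets. The main results kept all cells. Leaving them out is still counted among the other settings, and there the cells were clustered again. The median cell held 8694 UMIs in Veh and 7348 in Doxo. Calculations used Python 3.11.15, numpy 2.4.6, pandas 2.3.3 and scipy 1.17.1 and were tested on simulated data. Gene positions are those of GENCODE M21.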

Additional observations from a re-analysis of the deposited data

Results flagged for a closer look

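For 6 collagens the log2 ratio of Doxo over Veh was past 1.5-fold in opposite directions in different classes, and none of these differences between classes was tested. Col1a1 was at -3.19 in chondrocyte-like and 0.98 in synovial lining-like cells, where both values rested largely on few cells. Col1a2 was at -1.37 in chondrocyte-like and 1.30 in endothelial-like cells. Col11a1 was at -1.39 in CAR-like and 2.94 in synovial lining-like cells, and Col11a2 at -1.48 and 3.24 in the same classes. Of the Doxo UMIs of the synovial lining-like class 79.1% of Col11a1 and 83.0% of Col11a2 lay in 3 of 56 cells, and in CAR-like cells Col11a2 was at 0.07 with a stricter filter on cells. Col12a1 was at -0.78 in chondrocyte-like and 4.91 in endothelial-like cells, the latter on UMIs of at most 4 Doxo cells. Col6a3 was at -0.62 in osteoblast-like and 0.75 in endothelial-like cells.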

How the results depend on the processing

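No paired analysis was possible because each condition was 1 library, and for the same reason no library could be left out. The direction of the collagen share held under each alternative run in osteoblast-like cells (0.20 to 0.38) and endothelial-like cells (-0.44 to -0.06), under the fold throughout. It also held in chondrocyte-like, BCF-like and AEF-like cells under each alternative tried. It crossed the fold at -0.58 (stricter filter on cells) and -0.58 (cells rich in osteoblast markers left out) in chondrocyte-like cells, at -0.60 (cells weighing the same) in BCF-like cells, and in AEF-like cells at -0.58 with collagens kept for clustering, -0.58 thinned, -0.58 with cells weighing the same and -0.57 without cells rich in osteoblast markers. Leaving out cells rich in osteoblast markers, or those with most UMIs of a collagen, was chosen after seeing the data.

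Single ratios reversed as follows. Without the 5% of cells with most of its UMIs, Col1a1 was at 0.15 in CAR-like and 0.26 in chondrocyte-like cells, Col6a3 at 0.11 in osteoblast-like and Col13a1 at 0.97 in AEF-like cells. With the stricter filter (at least 1000 genes, at most 5% mitochondrial UMIs) Col11a2 was at 0.074 in CAR-like and -0.35 in endothelial-like cells, where Col1a1 was at -0.23. With called doublets left out Col14a1 was at 0.56 in CAR-like and Col4a1 at 1.63 in chondrocyte-like cells. Cells were clustered again in that setting, and the CAR-like class went from 796 to 777 and the chondrocyte-like class from 453 to 468 cells. The cause was not tested for any of these reversals.

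Counts of collagens past the fold moved by over 1.5 times as follows. In CAR-like cells 2 were lower without the cells with most UMIs and 12 with 1 UMI in each library as the minimum, and 2 were higher with the stricter filter, 20 components, doublets left out or thinning, 3 without the cells with most UMIs and 1 with the minimum of 1 UMI. In osteoblast-like cells 2 were lower with thinning, equal weights or without the cells with most UMIs, 8 with a minimum of 20 UMIs or 1 UMI and 1 at 2-fold, and 1 and 2 were higher with these minimums. In chondrocyte-like cells 17 were lower with the minimum of 1 UMI and 5 at 2-fold, and 2 were higher without doublets or thinned and 4 with 1 UMI. In BCF-like cells 3 were lower after centring on all genes and 2 at 2-fold, and 1 was higher thinned, 3 with 20 UMIs and 4 with 1 UMI. In AEF-like cells 4 were lower at 2-fold, and 1 was higher thinned or without the cells with most UMIs and 4 with 1 UMI. In synovial lining-like cells 1 was lower at 2-fold, and 3 were higher with the stricter filter or without the cells with most UMIs, 8 with 1 UMI and 2 at 2-fold. In endothelial-like cells 1 was lower with equal weights, 5 with 1 UMI and 0 at 2-fold, and 2 were higher with the stricter filter, 16 with 1 UMI and 3 at 2-fold. Standardising for finer clusters was not run in endothelial-like cells, which have none. In CAR-like cells it left out the finer cluster that held almost no Doxo cells. It left the ratios unchanged in chondrocyte-like and synovial lining-like cells, so it is no check there.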
